A study of Mus musculus with 7 samples.

Results

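The early lymphoid genes described here are Dntt, Rag1, Rag2, Il7r, Arpp21, Bank1, Ighm, Il12a, Cd7 and Ly6d. They are 10 of the 32285 genes in the count tables and each symbol matched 1 row. Arpp21, Bank1 and other members were put on the list because they differed between the labels KO and WT in these same libraries, so the label values are given as a description and no test of them is read as support. The cell states below are set by other genes, none of them a member. The cells were bone marrow LSK cells, the lineage-negative, Sca-1-positive and c-Kit-positive fraction that holds blood stem cells and multipotent progenitors, sorted from wild-type mice (WT, genotype 129S1/C57Bl/6, 4 libraries) and from mice of the same background that lack B4galt1 in the whole animal (KO, genotype 129S1/C57Bl/6, B4-/-, 3 libraries). B4galt1 encodes a galactosyltransferase that builds the antennae of glycans on many glycoproteins. No treatment separates the groups, and the labels give no age, sex or number of mice per library, so p-values measure the spread between these libraries.

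Early lymphoid genes come on before a progenitor is committed to a B or T cell. Multipotent progenitors with much of the cytokine receptor Flt3 begin to transcribe the machinery that cuts and joins antigen receptor genes, followed by the IL-7 receptor on which lymphoid progenitors depend. Rag1 and Rag2 form the recombinase that cuts DNA at V, D and J segments, and Dntt (terminal deoxynucleotidyl transferase) adds untemplated nucleotides at the joints. Il7r encodes the alpha chain of the IL-7 receptor. Ighm is the constant region of the mu heavy chain, transcribed from the unrearranged locus in early progenitors. Bank1 is an adaptor of B cell receptor signalling, Arpp21 an RNA-binding protein of early lymphocytes and neurons, Cd7 a surface protein of T and NK cells, Ly6d a surface marker of B-primed lymphoid progenitors, and Il12a the p35 subunit of interleukin-12.

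On the mouse assembly GRCm38 (mm10), Dntt lies at chr19:41029275-41059525 on the plus strand, Rag1 at chr2:101638282-101649501 on the minus strand, Arpp21 at chr9:112065091-112235938 on the minus strand and Bank1 at chr3:136053363-136326066 on the minus strand (GENCODE vM21). Rag2 sits beside Rag1, on the opposite strand, at chr2:101624718-101632529. The gene B230118H07Rik spans both Rag genes. It lies on the strand of Rag1, so reads in an exon that both genes use could not be told apart. Rag1, Arpp21 and Bank1 had lower normalised counts over all cells in each KO library than in any WT library. Those of Dntt overlapped between the labels. The promoters of these 4 members, which give the set its name, are shown. Each is the 250 bases before a RefSeq start of the gene (GRCm38.p6), 5' to 3' on the strand of the gene, at chr19:41029025-41029274, chr2:101649533-101649782, chr9:112233723-112233972 and chr3:136326067-136326316. For Arpp21 the first listed of 9 starts is shown, and its window lies inside the gene span given above.
Dntt: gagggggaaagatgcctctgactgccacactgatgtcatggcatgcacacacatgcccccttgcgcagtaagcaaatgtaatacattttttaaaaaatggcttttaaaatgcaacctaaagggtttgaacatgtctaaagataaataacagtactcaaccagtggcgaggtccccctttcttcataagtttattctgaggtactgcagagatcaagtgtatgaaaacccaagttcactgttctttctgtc
Rag1: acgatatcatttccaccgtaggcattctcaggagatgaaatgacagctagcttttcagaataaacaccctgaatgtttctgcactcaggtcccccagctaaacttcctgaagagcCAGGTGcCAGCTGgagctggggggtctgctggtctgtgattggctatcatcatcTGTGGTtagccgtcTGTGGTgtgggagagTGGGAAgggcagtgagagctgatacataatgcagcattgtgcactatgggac
Arpp21: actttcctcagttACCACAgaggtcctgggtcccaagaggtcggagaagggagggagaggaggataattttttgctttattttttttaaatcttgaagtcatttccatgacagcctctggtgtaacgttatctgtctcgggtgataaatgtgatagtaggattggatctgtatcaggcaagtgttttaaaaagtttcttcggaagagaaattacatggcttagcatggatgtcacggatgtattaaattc
Bank1: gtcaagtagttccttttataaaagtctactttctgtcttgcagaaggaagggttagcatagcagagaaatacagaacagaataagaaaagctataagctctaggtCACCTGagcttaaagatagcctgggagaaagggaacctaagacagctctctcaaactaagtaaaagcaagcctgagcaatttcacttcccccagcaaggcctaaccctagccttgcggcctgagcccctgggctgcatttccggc
Capitals mark matches, on either strand, to 4 short motifs of lymphoid transcription factors: CAGGTG (an E-box bound by E2A), CAGCTG (another E-box), TGTGGT (the Runx core) and TGGGAA (the Ikaros core). The Rag1 window held 1 CAGGTG, 1 CAGCTG, 2 TGTGGT and 1 TGGGAA, and the CAGGTG and CAGCTG stand 1 base apart. The Arpp21 window held 1 TGTGGT match, the Bank1 window 1 CAGGTG match, and the Dntt window none of the 4. Among 27025 mouse promoters of this length, 17.1% held CAGGTG, 12.8% CAGCTG, 14.2% TGTGGT and 21.5% TGGGAA. These are letter matches, and binding was not measured. RefSeq promoters were matched for 7 of the 10 members.

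After filtering, 24430 cells were kept, with 12681440 to 89268502 unique molecular identifiers (UMIs, 1 per captured RNA molecule) per library and a median of 8046 to 11083.5 per cell. The cell barcodes came from 2 different lists. KO libraries 1 and 2 and WT libraries 1 to 3 used list A, and KO library 3 and WT library 4 used list B. List B libraries also had a higher share of ribosomal protein UMIs (31.6% and 31.8%, against 14.7% to 22.3%), so the label differences over all cells are also given within the lists. KO library 3 and WT library 4 shared 68 kept barcodes, 0.992% of the smaller library, and other pairs shared 0 to 2. These 2 libraries held the most kept cells (6855 and 8862). Their barcodes also had fewer different openings of 6 bases (480, against 900 to 958 in list A libraries). The number shared by chance was not computed, so no mixing of cells is read from this. B4galt1 itself gave 51.2, 55.6 and 27.4 UPM (UMIs of the gene per 1000000 UMIs) in KO libraries 1 to 3 and 56.4, 69.2, 56.7 and 34.8 in WT libraries 1 to 4. Within each list KO was below WT, but transcript remained in every KO library. These counts, 3' by the labels, do not check the deletion. Kit, the gene of c-Kit, was seen in 67.4% to 88.4% of cells and Ly6a, the gene of Sca-1, in 15.1% to 34.4%, while Cd3e, a defining T cell gene, stayed at or below 0.248%.

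To follow the members across cell states, each cell was put in a gate by marker genes that are not members. The Flt3-high gate asked for at least 3 Flt3 UMIs and fewer than 2 of 6 stem cell genes, the stem gate for at least 2 stem cell genes (such as Procr, Hlf and Mecom) with no Flt3 UMI, and the granule gate for at least 3 of the neutrophil granule genes Mpo, Elane, Prtn3, Ctsg and Ms4a3. Gates for T/NK, B-lineage, plasmacytoid dendritic (Siglech, Ccr9 and others), megakaryocyte/erythroid/basophil and monocyte markers were set before these. The gates were set on all UMIs of a cell, without making depth equal. A gate holds cells that carry those RNAs and is not a proven cell type. The cells in no gate, 8198 in all, were mostly cells with at least 2 stem cell genes and Flt3 together (76.4% to 96.1% of them).

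Dntt separated the gates sharply. In the Flt3-high gate it reached 541, 599 and 1130 UPM in KO libraries 1 to 3 and 1027, 1083, 925 and 884 in WT libraries 1 to 4. In the stem gate the same libraries had 6.17, 4.34 and 6.74 and then 13.9, 7.08, 15.3 and 11.2. No library of the one gate came near the other. The Flt3-high gate was higher by 6.69 on the log2 scale (SE 0.14, adjusted p = 6.6e-21, edgeR quasi-likelihood test within libraries), and it was higher in 7 of 7 libraries. In cells thinned to 3000 UMIs, so that depth is equal, a Dntt UMI was found in 54.4% to 81.7% of Flt3-high cells and in 0.866% to 3.30% of stem-gate cells. The megakaryocyte/erythroid/basophil gate, which should lack Dntt, had 4.79 to 25.3 UPM over the 7 libraries, a range that overlaps the stem gate. In the 4 libraries with at least 20 such cells, 1.92% to 10.3% of them had a Dntt UMI after thinning. The stem-gate shares lie within or below that range, and their source was not tested. The stem-gate level rests on 7 to 57 Dntt UMIs per library in KO and 10 to 108 in WT, and all 3 KO values lay below the WT values.

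The other lymphoid genes had the same direction between these gates. Of the 6 members with enough counts to be tested, all 6 were higher in the Flt3-high gate than in the stem gate, against 18.8% of 10071 genes tested that were higher (35.8% differed in either direction). A gene that is near 0 in the stem gate passes the count filter through the Flt3-high gate alone. Without that filter all 10 members were tested and all 10 were higher, as were 1977 of 21588 genes tested. Il7r was higher by 7.08 (SE 0.28, adjusted p = 1.9e-19), with 26.2 to 62.2 UPM against 0 to 0.621. It was at 0 in the stem gate of 4 of the 7 libraries, so that fold rests on few molecules. Arpp21 was higher by 6.28 (SE 0.16, adjusted p = 5.4e-23), Ighm by 5.59 (SE 0.18, adjusted p = 4.9e-12) and Il12a by 3.02 (SE 0.10, adjusted p = 8.2e-21) in the edgeR fit. Bank1 had the smallest step of the 6, 2.15 (SE 0.28, adjusted p = 3.2e-06, edgeR), and it was present in the stem gate at 1.37 to 9.75 UPM. Rag1, Rag2, Cd7 and Ly6d were tested only without the filter. Rag1 showed 3.50 (SE 0.91, adjusted p = 0.0010, edgeR) and Rag2 4.87 (SE 0.42). The Rag1 value rests on 0 to 12 UMIs per library in the Flt3-high gate. In the stem gate Rag1 was at 0 in 5 of the 7 libraries.

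**Figure D1:**
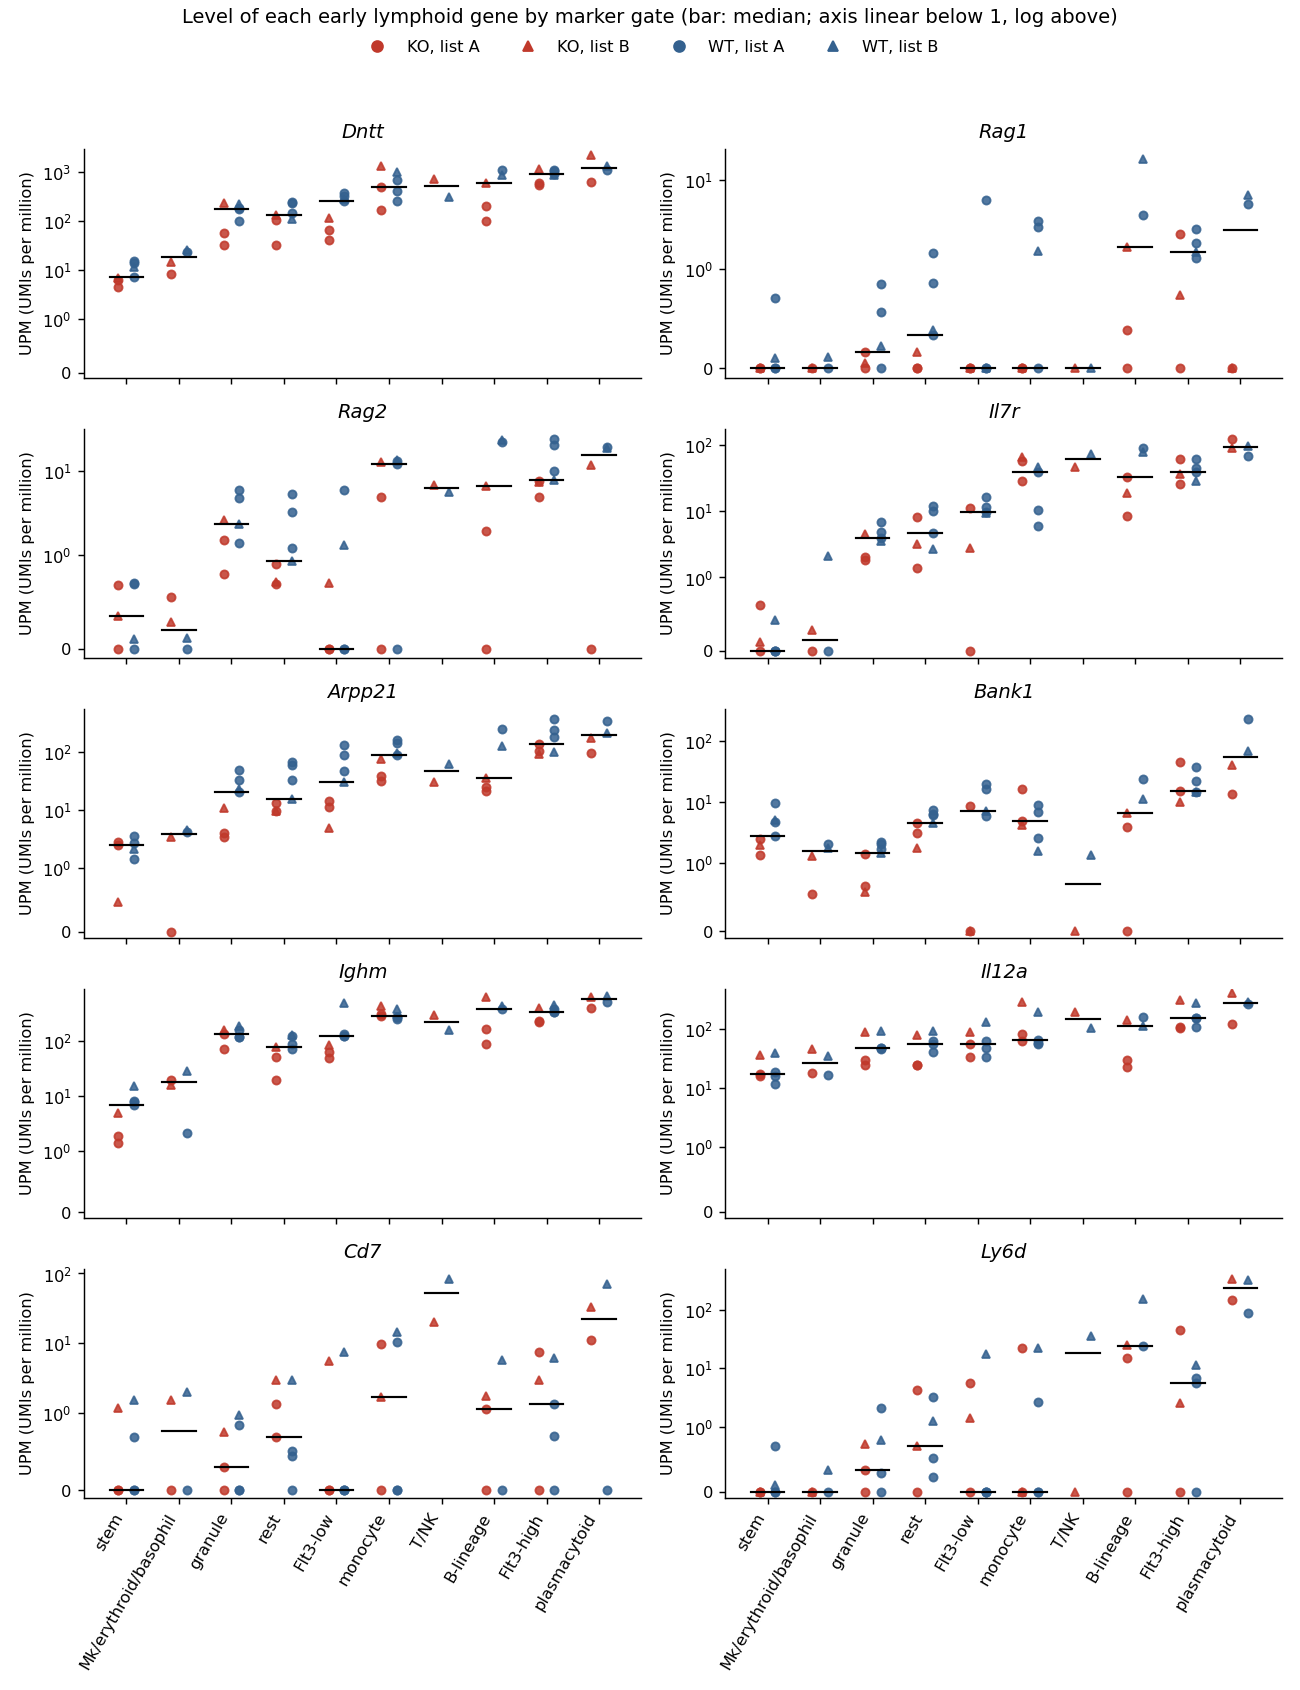
UPM of each early lymphoid gene (y axis, linear below 1 and logarithmic above) in each marker gate (x axis), 1 point per library with at least 20 cells in the gate, red for KO, blue for WT, circles for barcode list A, triangles for list B, and a bar at the median. Dntt, Il7r, Arpp21 and Ighm step up from the stem gate to the Flt3-high and plasmacytoid gates, while Rag1 and Cd7 stay near 0 in most gates.

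Against the granule gate, which holds cells with neutrophil granule RNAs, the members were also higher in the Flt3-high gate. All 7 members tested were higher, against 12.8% of 11163 genes (27.2% differed in either direction). Without the filter on low counts all 10 were higher, as were 1107 of 23569 genes tested. Bank1 showed the largest of the 7 differences, 3.84 (SE 0.24, adjusted p = 6.1e-11), followed by Il7r at 3.33 (SE 0.20, adjusted p = 1.2e-10) and Arpp21 at 3.09 (SE 0.34, adjusted p = 6.6e-04) in the edgeR fit. Dntt was 2.79 higher (SE 0.24, adjusted p = 4.3e-05, edgeR), and granule-gate cells held 32.0 to 233 UPM of Dntt. Ighm was 1.31 higher (SE 0.10), with 72.0 to 184 UPM in the granule gate. The granule-gate levels of Dntt and Ighm did not overlap their stem-gate levels, while that of Bank1, 0.582 to 2.27 UPM, overlapped its own.

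**Figure D2:**
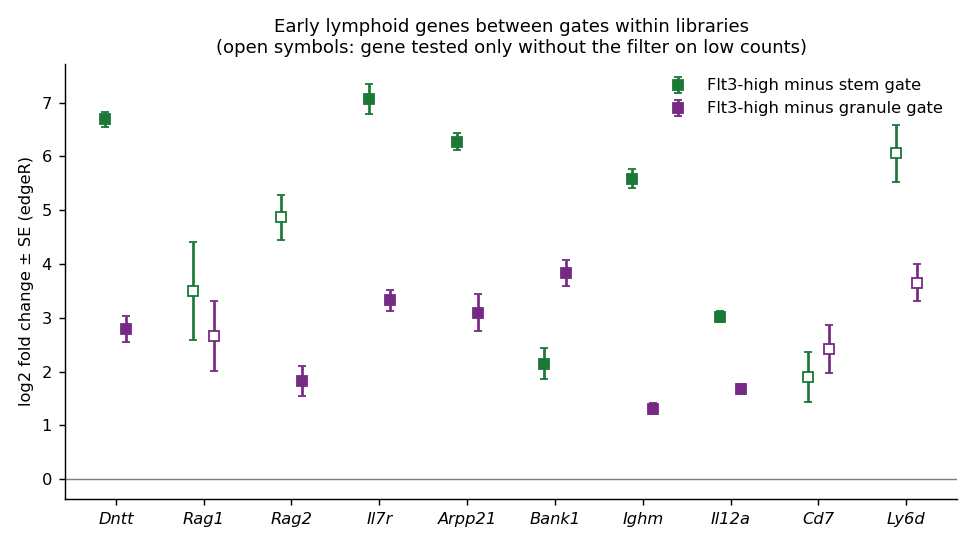
log2 fold change with its SE from edgeR fits (y axis) for each early lymphoid gene (x axis), Flt3-high gate over stem gate in green and over granule gate in purple, 7 libraries each. Every point lies above 0. Open symbols are genes tested only without the filter on low counts.

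Across all gates, the plasmacytoid gate had the highest median of 9 of the 10 members, all but Cd7. It held only 4 to 134 cells per library, and 4 libraries had the 20 cells needed for a value. Dntt there had 635, 2193, 1100 and 1298 UPM in KO libraries 1 and 3 and WT libraries 3 and 4. This range overlaps that of the Flt3-high gate, so the order of these gates is not separated by the spread. Ly6d was the gene most concentrated in the plasmacytoid gate, with a median of 231 UPM against 24 in the B-lineage gate and 5.65 in the Flt3-high gate. Its plasmacytoid range, 86.5 to 330, overlaps that of the B-lineage gate, 0 to 149. Cd7 had its highest median in the T/NK gate, 51.7 UPM from 2 libraries (20.4 and 82.9). For Dntt the order of medians ran plasmacytoid, Flt3-high, B-lineage, T/NK, monocyte, Flt3-low, granule, ungated, megakaryocyte/erythroid/basophil and stem, and each neighbour overlapped the next except between the ungated cells (32.5 to 244 UPM) and the megakaryocyte/erythroid/basophil gate (8.30 to 25.3).

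Genes whose level followed Dntt over the 57 sums of a gate in a library were, among 10681 genes ranked, first the members Ighm (Pearson r = 0.93), Arpp21 (r = 0.92) and Il7r (r = 0.91). The 8 non-members most like Dntt were Cmah (r = 0.89), Cd33, Drc7, Emp1, Cnn3, Fgf13, H2-Ob and Mgat1 (r = 0.82). Il12a stood at r = 0.86, Rag2 at 0.70, Ly6d at 0.52, Bank1 at 0.47 and Cd7 at 0.36. The sums share libraries and depth, so these are descriptions with no p. Bank1 ranked only 231st. At equal depth 20% to 63.6% of cells with a Bank1 UMI also had a Dntt UMI, 61.9% to 88.9% of cells with Il7r and 64.3% to 84.4% of cells with Arpp21. The Bank1 value was the lowest of these 3 in each of the 7 libraries, a difference that was not tested.

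Genes that work with the members did not move as a block between the gates. Of 10 partner genes of V(D)J recombination, 8 were tested, and 3 were higher and 1 lower in the Flt3-high gate than in the stem gate. Among them were the Ku70 gene Xrcc6 (1.18, SE 0.11, adjusted p = 1.2e-08, edgeR) and Hmgb1 (0.37, SE 0.08, adjusted p = 3.2e-04, edgeR). The lower one was the ligase partner Xrcc4 (-0.46, SE 0.09, adjusted p = 8.3e-05, edgeR). Of 9 genes of IL-7 receptor signalling, 1 was higher and 3 were lower. The survival gene Bcl2 was the higher one (1.41, SE 0.08), and Cish (-1.82, SE 0.19) and Stat5a (-0.95, SE 0.10) were lower. Of 24 lymphoid-primed genes 12 were tested, and 10 were higher and 1 lower. They included the chromatin organiser Satb1 (3.32, SE 0.11), the receptor Notch1 (2.45, SE 0.11) and the kinase Lck (2.05, SE 0.13). The medians were 0.20, -0.18 and 1.09 for the 3 lists and 0.02 for all genes. Against the granule gate the counts were 4 higher and 1 lower of 8, 1 and 1 of 9, and 9 and 1 of 12.

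Between the labels, Arpp21, Bank1, Rag1, Rag2 and Il7r had lower levels in each of the 3 KO libraries than in any WT library. These 5 of 10 members compare with 3.07% of the 14608 genes tested whose KO values all lay below the WT values. Arpp21 gave 8.03, 6.98 and 16.0 CPM (counts per 1000000, with library sizes normalised by TMM) in KO libraries 1 to 3 and 53.2, 69.2, 56.6 and 36.7 in WT libraries 1 to 4. Bank1 gave 2.17, 1.72 and 2.14 and then 7.71, 7.83, 12.3 and 6.42. In both genes WT library 4 was the lowest WT library. The log2 difference of Arpp21 was -3.00 within list A (edgeR fit) and -1.19 within list B (the ratio of 2 CPM values), and that of Bank1 was -2.26 and -1.58.

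The recombinase genes were rare in these cells and rarer in KO. Rag1 was counted with 2, 2 and 11 UMIs in KO libraries 1 to 3 (0.0444, 0.111 and 0.159 CPM) and with 11, 12, 16 and 108 UMIs in WT libraries 1 to 4 (0.816, 0.832, 0.849 and 1.37 CPM). Its values in KO libraries 1 and 2 rest on 2 molecules each. Rag2 gave 0.910, 1.38 and 2.42 CPM in KO and 4.15, 5.41, 3.45 and 3.58 in WT. Il7r, the receptor chain, gave 4.28, 5.26 and 7.23 CPM in KO and 11.2, 11.5, 11.7 and 12.3 in WT, with little spread among WT libraries. Within list A and list B the log2 differences were -3.57 and -3.11 for Rag1, -1.97 and -0.57 for Rag2, and -1.30 and -0.77 for Il7r.

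Dntt did not separate the labels by CPM. It gave 46.9, 77.5 and 260 CPM in KO libraries 1 to 3 and 238, 227, 236 and 287 in WT libraries 1 to 4. KO libraries 1 and 2 lay far below the WT libraries of their list, and KO library 3 lay above those and a little below WT library 4. The log2 difference of Dntt was -1.93 within list A and -0.15 within list B. Other measures placed KO library 3 differently. In cells thinned to 3000 UMIs, Dntt UMIs per 1000 cells were 185, 226 and 613.5 in KO libraries 1 to 3. They were 615.5 to 732 in WT, just without overlap. Without thinning they overlapped, with 2615 in KO library 3 and 2555 in WT library 4. The label values of Ighm (74.2 to 151 CPM in KO, 108 to 204 in WT), Il12a (26.9 to 105 and 45.8 to 117), Cd7 (0.222 to 2.14 and 0.222 to 5.15) and Ly6d (0 to 3.53 and 0.554 to 15.7) overlapped as well. For all 4 the highest WT value was that of the list B library. Within list A and list B the log2 differences were -0.32 and -0.44 for Ighm, -0.93 and -0.16 for Il12a, and -0.40 and -2.15 for Ly6d. Cd7 was too sparse for the fit in list A, where KO libraries 1 and 2 had 36 and 4 UMIs and WT libraries 1 to 3 had 3, 6 and 8, and its difference in list B was -1.27.

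**Figure D3:**
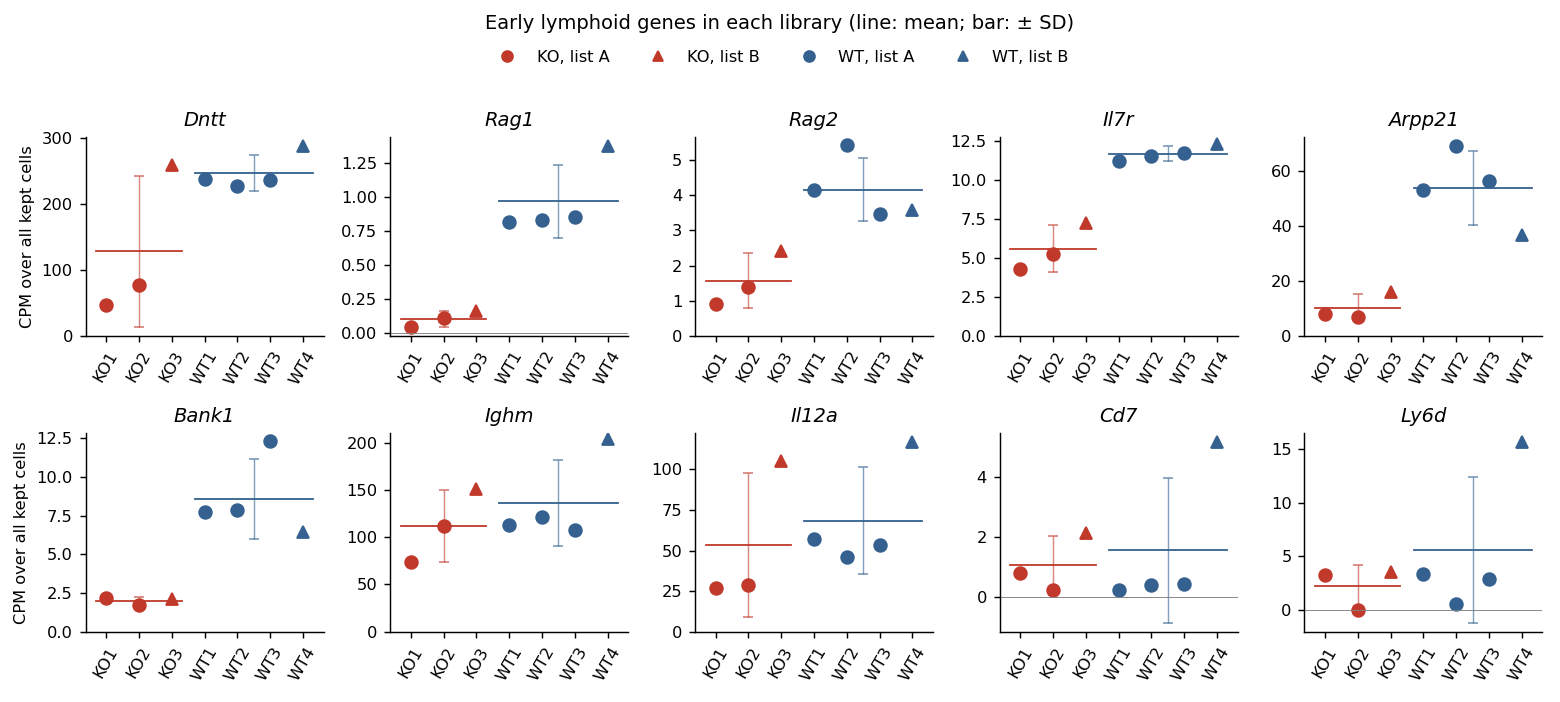
CPM over all kept cells (y axis, from 0) of each early lymphoid gene in each library (x axis), red for KO, blue for WT, circles for list A and triangles for list B, with each label's mean (line) and SD (bar). Arpp21, Bank1, Rag1, Rag2 and Il7r do not overlap between the labels, while Dntt in KO library 3 (260) lies among the WT libraries.

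Fitted with the barcode list as a covariate, the label difference was -3.32 on the log2 scale for Rag1 (SE 0.43), -2.43 for Arpp21 (SE 0.36), -2.02 for Bank1 (SE 0.26), -1.47 for Rag2 (SE 0.35), -1.39 for Dntt (SE 0.35) and -1.11 for Il7r (SE 0.17). Ly6d showed -0.95 (SE 1.08), Il12a -0.68 (SE 0.17), Ighm -0.34 (SE 0.16) and Cd7 -0.21 (SE 0.51). The median over the 10 members was -1.25, and over all genes 0.01. In this fit 4 members (Rag1, Arpp21, Bank1 and Il7r) passed the threshold, where 0.637% of genes were called lower and 1.11% were called in either direction. Since the members were chosen in this contrast, nothing is read from that count. It also depended on the model: without the list covariate no member and no gene passed, although 697 genes had an unadjusted p under 0.05, and within list A or with DESeq2 7 members passed. Without WT library 3 only Bank1 passed, and without WT library 1 only Rag1 and Bank1. Without KO library 3 or WT library 4, 7 passed.

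Of the partner lists, none of the 10 V(D)J partner genes and none of the 9 IL-7 signalling genes passed in the label contrast by edgeR. Their medians were 0.03 and 0.00, beside 0.01 for all genes. The V(D)J partner gene with the smallest p was the Ku80 gene Xrcc5 (-0.78, SE 0.17, adjusted p = 0.071, edgeR). Of 18 lymphoid-primed genes tested, Ccr9 (-2.61, SE 0.44, adjusted p = 0.031) and Lax1 (-1.18, SE 0.19, adjusted p = 0.030) were lower in the edgeR fit. The median over the 18 genes was -0.56.

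The interaction of label and barcode list, a term that did not enter the choice of members, asks whether the label difference was the same in both lists. The difference was smaller in list B for Arpp21 by 1.79 (SE 0.32, adjusted p = 0.397) and for Dntt by 1.76 (SE 0.43, adjusted p = 1.00), so 0 of 10 members passed by edgeR. Of all genes 0.0137% passed, and 349 had an unadjusted p under 0.05. With DESeq2 both genes passed (adjusted p = 0.0047 and 0.025), and both passed without the filter on low counts and without KO library 2. Without KO library 1, Arpp21 passed alone. Over the alternatives run, the adjusted p of Arpp21 ran from 5.6e-04 to 0.785 and that of Dntt from 0.0071 to 1.00. List B holds 1 library per label, so this term rests on a single pair of libraries.

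A lower mean can come from fewer cells with the RNA or from less RNA in each such cell. The mean UMIs per cell is the product of the share of cells with a UMI and the UMIs per cell with a UMI, so its log2 ratio splits exactly into these parts. Cells were thinned to 3000 UMIs each for this, which left out 718 shallower cells. Over the 7 members with a UMI in every library, the median share part was -0.93 and the median level part -0.13 (log2, KO over WT). A cell with a UMI holds at least 1, and thinned cells with a UMI of Rag2 held only 1.00 to 1.22 on average and those of Il12a 1.07 to 1.42, so the level part of such sparse genes is held near 0 and the split cannot show that their level per cell was alike. No test was made, since the members were chosen on this difference.

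Arpp21 UMIs were found in 1.90%, 1.60% and 2.64% of cells in KO libraries 1 to 3 and in 8.70%, 10.4%, 9.35% and 6.83% in WT libraries 1 to 4. The cells that had any held 1.68, 1.56 and 1.35 Arpp21 UMIs on average in KO and 1.76, 1.83, 1.66 and 1.46 in WT. The share did not overlap between labels and the level per positive cell did. The share part was -2.12 and the level part -0.14. For Bank1 the share was 0.713%, 0.640% and 0.602% in KO and 2.22%, 2.05%, 2.82% and 1.78% in WT, with parts of -1.75 and -0.24. Bank1-positive cells held 1.10 to 1.38 UMIs in KO and 1.24 to 1.55 in WT, also close to 1. The floor of 1 thus holds the level parts of Arpp21 and Bank1 towards 0 too. Without thinning, Arpp21-positive cells held 2.83 and 2.38 Arpp21 UMIs in KO libraries 1 and 2. Those of WT libraries 1 to 3, of the same list, held 3.72, 4.54 and 3.90. In list B they held 2.42 in KO library 3 and 2.28 in WT library 4.

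Dntt was abundant enough for its level per cell to vary. Its share was 8.42%, 10.5% and 17.2% in KO libraries 1 to 3 and 22.2%, 21.9%, 21.0% and 22.5% in WT libraries 1 to 4, without overlap although its CPM did overlap. Positive cells held 2.20, 2.15 and 3.58 Dntt UMIs in KO and 2.95, 2.81, 3.00 and 3.25 in WT. Positive cells of KO libraries 1 and 2 thus held fewer Dntt UMIs than those of any WT library, and those of KO library 3 more than any. Within list A the share part was -1.21 and the level part -0.42, and within list B, with 1 library per label, they were -0.39 and 0.14. In KO library 3, 9.16% of Dntt cells held 10 or more Dntt UMIs, against 6.53% in WT library 4, and 0.806% and 0% in KO libraries 1 and 2 against 2.98% to 3.61% in the WT libraries of list A.

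Il7r had a share part of -0.77 and a level part of 0.08, Ighm -0.42 and -0.05, and Il12a -0.45 and -0.13. The share part of Il7r was -0.73 within list A and -0.86 within list B. Rag2 had a share part of -1.82 and a level part of -0.04, but its share part was -2.58 within list A and -0.23 within list B. Its share was 0.204%, 0.128% and 0.676% in KO libraries 1 to 3 and 1.11%, 1.30%, 0.619% and 0.794% in WT libraries 1 to 4, which overlap, and the value of KO library 2 rests on 2 cells. Il7r cells were 1.12%, 1.34% and 1.13% in KO and 2.13%, 1.68%, 2.34% and 2.06% in WT. Without thinning, where deeper cells are counted in full, the level part of Dntt was -0.55 and its share part -0.70, and those of Il12a were -0.26 and -0.23. They were -0.62 and -1.36 for Bank1, -0.47 and -1.91 for Arpp21, -0.34 and -1.09 for Rag2, and -0.29 and -2.99 for Rag1. For Il7r they were -0.05 and -0.99, and for Ighm -0.05 and -0.17. Unthinned UMIs per positive cell did not overlap for Rag1 (1 in KO, 1.14 to 1.35 in WT) and Rag2 (1.04 to 1.21 and 1.32 to 1.59). For the remaining members they overlapped. At equal depth Rag1 was seen in 0 of 2947 and 0 of 1563 cells in KO libraries 1 and 2, which allows shares up to 0.102% and 0.192%, in 0.0588% in KO library 3, and in 0.0853% to 0.372% in WT. Ly6d was seen in 0 of 1563 cells of KO library 2 and 0 of 1074 cells of WT library 2 (up to 0.192% and 0.279%), and Cd7 in 0 of 1172 cells of WT library 1 (up to 0.256%). These limits cover counting error only. The limits for Rag1 reach into the WT range, so a lower Rag1 share in list A was not detectable in thinned cells. Without thinning, where depth is not equal, the Rag1 share was 0.0651% to 0.160% in KO and 0.723% to 0.933% in WT, without overlap. The KO shares rest on 2, 2 and 11 cells.

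**Figure D4:**
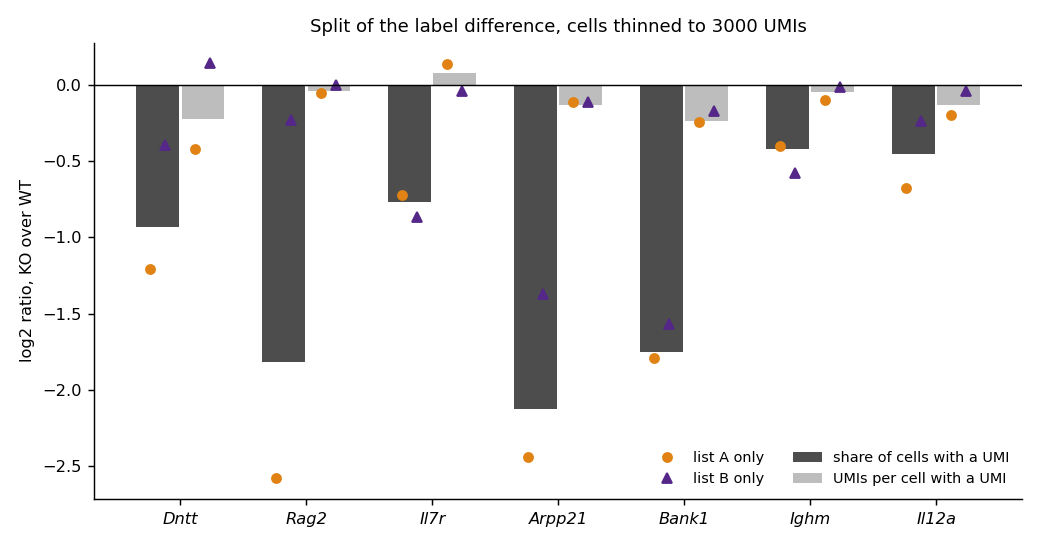
Split of the log2 ratio of KO over WT (y axis) into the share of cells with a UMI (dark bars) and the UMIs per cell with a UMI (light bars) for the 7 early lymphoid genes with a UMI in every library, cells thinned to 3000 UMIs. Circles give list A alone and triangles list B alone. Every dark bar is below 0, from -0.42 (Ighm) to -2.12 (Arpp21), and the light bars lie between -0.24 and 0.08.

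The gates themselves had different sizes in the labels, and this moved with the members. The Flt3-high gate held 1.89% to 4.25% of cells in KO and 4.27% to 10.7% in WT, the plasmacytoid gate 0.232% to 0.651% and 0.768% to 1.93%, the ungated cells 14.2% to 28.9% and 38.4% to 55.3%, and the granule gate 34% to 64.7% and 14.1% to 21.9%. The difference in mean UMIs per cell can be parted between the make-up of the gates and the level within them, a split added after the data were seen. In list A the make-up took up 24.3% of the Arpp21 difference, 21.8% of the Dntt difference, 45.0% of the Bank1 difference, 12.9% of the Il12a difference and 87.1% of the Il7r difference. For Ighm, Rag1 and Rag2 the make-up part in list A ran against the difference, for Ighm with 37.1 UMIs per 1000 cells beside a total of -92.0. Cd7 and Ly6d differed there by 1.40 and -0.746 UMIs per 1000 cells, with parts of opposite sign. In list B the values were 37.8% for Arpp21, 35.9% for Bank1, 55.1% for Il7r, 82.4% for Rag2 and 89.7% for Il12a, and from 27.7% to 40.0% for Rag1, Cd7, Ighm and Ly6d. For Dntt in list B the make-up part was -179 UMIs per 1000 cells and the within-gate part 60.6, in opposite directions, beside a total of -118. A larger share of Arpp21 than of Il7r thus lay within the gates in both lists, and Dntt differed between them. The gates use the same RNA pool as the members and are coarse, so a within-gate part can still hold cells of different states.

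Inside the Flt3-high gate the 6 members tested did not move alike. Arpp21 gave 133, 103 and 111 CPM in KO libraries 1 to 3 and 183, 349, 239 and 122 in WT libraries 1 to 4, a fitted difference of -0.73 (SE 0.24) against -2.43 over all cells. Bank1 gave 42.6, 14.7 and 11.8 in KO and 14.3, 20.3, 36 and 17.3 in WT, a difference of -0.10 (SE 0.36). Dntt differed by -0.45 (SE 0.21), with KO library 3 (1335) the highest of the 7 libraries, Il12a by -0.16 (SE 0.20) and Il7r by 0.12 (SE 0.25). These 5 values are nearer 0 than over all cells. Ighm went the other way, with -0.49 (SE 0.18) in the gate against -0.34 over all cells, and gave 215, 216 and 458 CPM in KO and 325, 358, 332 and 527 in WT. None of the 6 passed, where 0.093% of 8604 genes did, and 411 genes had an unadjusted p under 0.05 in this edgeR fit.

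Rag2 fell under the count filter in the gate and was not tested there. It was the one member whose CPM did not overlap between the labels, with 4.73, 7.33 and 8.71 in KO libraries 1 to 3 and 19.5, 22.2, 9.69 and 9.17 in WT libraries 1 to 4, where 1.44% of the genes tested had all KO values below the WT values. The KO values rest on 2, 2 and 20 UMIs. Within list B the gate differences were -0.08 for Rag2, -0.14 for Arpp21, -0.20 for Ighm, -0.56 for Bank1, 0.16 for Il12a, 0.34 for Dntt and 0.37 for Il7r. The gate held 41 to 947 cells per library, and whether the members differ less in it than outside was not tested.

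Cells with a Dntt UMI gave another view. Among them at equal depth, 14.5%, 11.6% and 13% carried Arpp21 in KO libraries 1 to 3 and 28.8%, 33.6%, 30.8% and 22.1% in WT libraries 1 to 4, with no overlap. In cells without Dntt the shares were 0.741%, 0.429% and 0.496%, and 2.96%, 3.93%, 3.65% and 2.41%. The share of the same cells with Il7r overlapped, with 10.1%, 7.93% and 5.48% in KO and 8.46%, 6.81%, 9.18% and 7.35% in WT. By CPM summed over all cells with a Dntt UMI, not thinned, Il7r did not overlap, with 24.2, 20.5 and 21.6 in KO and 31.4, 30.9, 28.4 and 28.1 in WT. Arpp21, Bank1, Rag1 and Rag2 did not overlap by that measure either, 5 of 10 members with all KO values below the WT values, where 1.73% of genes tested had this. Fitted on these sums, the label difference was -2.68 for Rag1 (SE 0.43), -1.77 for Bank1 (SE 0.28), -1.60 for Arpp21 (SE 0.23), -1.15 for Rag2 (SE 0.29) and -0.41 for Il7r (SE 0.12). Those of Rag1, Bank1 and Arpp21 passed, where 0.906% of 12690 genes did, and nothing is read from it for the reason given above.

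The Arpp21 share grew with the Dntt count of the cell in every library but KO library 2, whose highest class held 18 cells. In cells with 1 Dntt UMI it was 2.24%, 8.54% and 5.65% in KO and 10.4%, 18.4%, 12.2% and 10.4% in WT. In cells with 3 or 4 it was 26.2%, 17.2% and 14.3%, and 33.9%, 47.4%, 37.8% and 22.9%. In cells with 5 or more it was 56.0%, 16.7% and 26.6%, and 59.2%, 60.8%, 59.7% and 48.0%. The labels did not overlap at 1 or 2 Dntt UMIs, and KO library 1 lay within the WT range at 3 or more. Within list B, where both libraries are large, the KO share was below the WT share in each of these classes.

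Cells with Dntt carried granule RNAs more often in KO, as did the kept cells as a whole. Of the cells with a Dntt UMI at equal depth, 55.2%, 44.5% and 43.2% met the granule gate in KO libraries 1 to 3 and 18.5%, 18.3%, 16.1% and 21.9% in WT libraries 1 to 4. Of all kept cells, 34% to 64.7% met it in KO and 14.1% to 21.9% in WT, so this label difference was not limited to Dntt cells. The Dntt cells lay below the share of their own library in KO libraries 1 and 2 and WT library 1. They lay above it in KO library 3 and WT libraries 2 to 4. The 5 granule genes gave 3.44, 3.61 and 3.88 UMIs per Dntt cell in KO and 1.60, 1.49, 1.40 and 2.19 in WT. They were lower in Dntt cells than in the remaining cells of each library (19.3, 11.5 and 5.52, and 4.06, 2.92, 1.81 and 3.47). In the stem gate, which excludes granule-gate cells, these genes gave 1.36 to 1.44 UMIs per cell in KO and 0.583 to 0.994 in WT. The part of free granule RNA in these shares was not tested. Leaving out granule-gate cells, Arpp21 was found in 26.1%, 16.5% and 16.1% of Dntt cells in KO and 32.5%, 34.4%, 33.2% and 24.4% in WT, where KO library 1 lay above WT library 4 and each KO library below the WT libraries of its list. Among Dntt cells of the granule gate it was found in 5.11%, 5.48% and 8.91%, and in 12.5%, 30.2%, 18.4% and 13.5%.

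**Figure D5:**
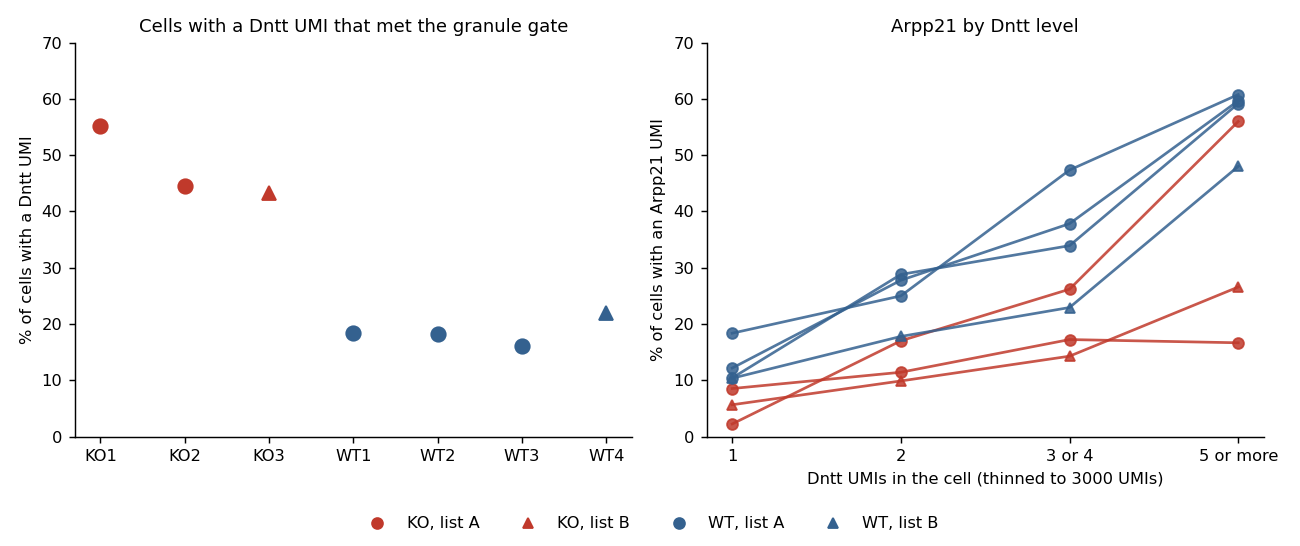
Left, the percentage of cells with a Dntt UMI that met the granule gate (y axis) in each library (x axis). Right, the percentage of cells with an Arpp21 UMI (y axis) by the number of Dntt UMIs in the cell (x axis), a line per library. Dntt and Arpp21 UMIs were counted in cells thinned to 3000 UMIs, and the gate was set on all UMIs of a cell. Red is KO, blue is WT, circles are list A and triangles list B. The KO libraries sit at 43.2% to 55.2% on the left, above the WT libraries at 16.1% to 21.9%, and on the right each KO line lies below the WT lines of its list.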

How the data were processed

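Single-cell RNA was measured with droplet capture in 7 libraries of sorted LSK cells. The deposited files hold the authors' UMI counts per gene and cell barcode, not normalised. Per the submitters' processing notes, Cell Ranger 7.0.0, Seurat 4.4.0 and the build mm10 were used, in roles that are not given. Per the labels' protocols the kit was a 3' v2 kit, the same for every library. The labels thus give no kit difference to go with the different barcodes of list A and list B libraries. Whether the list B libraries were made with another kit was not tested, so the labelled kit is unchecked. Barcodes were kept with at least 1000 UMIs, 500 genes and at most 10% mitochondrial UMIs, which left 32.4% to 49.9% of the barcodes of list A libraries and 96.2% and 98.3% of those of list B libraries. Scrublet (scanpy 1.11.5) called 14 doublets in all, under 0.5% of the cells, and so did not work here. Cells were left in, and an alternative removed the 1348 highest scores (0.8% per 1000 barcodes).

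Counts were summed per library, or per library and gate (at least 20 cells), and fitted in edgeR 4.0.16 (TMM, filterByExpr, robust quasi-likelihood test, R 4.3.3), two-sided, Benjamini-Hochberg adjusted over all genes tested, threshold 0.05. CPM used TMM library sizes. Label fits had the barcode list as covariate and gate fits the library as block. DESeq2 1.42.0 was an alternative. The count scripts were tested on simulated data. Thinning drew 3000 UMIs per cell without replacement. Genes named are the 10 members, from each partner list up to 3 with the smallest p in a comparison, and the 8 non-members most correlated with Dntt (log2 CPM, prior count 1, mean CPM at least 5). The members, lists and tests were chosen with earlier results of these data known. No column of another sample was used. Replicates of a group differed well beyond sampling noise, so none was a library deposited more than once. Some values, among them part of the calls in the lymphoid-primed list, are not reported here.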

Additional observations from a re-analysis of the deposited data

Results flagged for a closer look

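Among 40 sets of 4 WT values, 10 had a highest library set apart from the other 3 by a gap above Dixon's 95% critical value, where chance gives about 1 in 20. Each of the 10 is WT library 4, the WT library of barcode list B. Over all kept cells these were Rag1 (1.37 CPM), Ighm (204 CPM), Il12a (117 CPM) and Cd7 (5.15 CPM). In the Flt3-high gate it was Ighm (527 CPM). In cells with a Dntt UMI these were Rag1 (3.40 CPM), Ighm (374 CPM) and Cd7 (4.94 CPM). By the share of thinned cells with a UMI these were Il12a (24.3%) and Cd7 (1.08%). KO library 3, of the same list, was also the highest KO library for Rag1, Ighm, Il12a and Cd7 over all kept cells (0.159, 151, 105 and 2.14 CPM). The part of the barcode list in these values cannot be told apart from that of the library, since each list B group is 1 library.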

How the results depend on the processing

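Members called lower between the labels (4, and 162 genes in all) were 0 without the list covariate (0 genes), 7 within list A (362 genes), 7 with DESeq2 (856 genes), 5 without the filter on low counts (547 genes) and 1 to 7 when each library was left out (16 to 349 genes). Replicate numbers shared between labels did not pair the libraries: deviations of same-numbered libraries correlated at 0.53, 0.72 and -0.36. With the replicate number as a block and no list covariate, 0 members and 1 gene were called. Cd7, not called, ran from -1.11 to 0.63 (positive without KO library 3) when each library was left out and turned to 1.33 with the block. The other members kept a negative label difference in all alternatives run. Members higher in the Flt3-high than in the stem gate (6) were 10 without the count filter and 5 to 7 otherwise, and no alternative turned a gate difference. The interaction count (0 members, 2 genes) was 2 with DESeq2 (15 genes), 2 without the filter (71 genes) and 0 to 2 when a list A library was left out (1 to 92 genes). Leaving out list A libraries, the interaction term ran from -0.15 (without KO library 1) to 1.06 for Rag1, from -2.64 to 7.16 (without KO library 1) for Ly6d and from -0.35 to 0.19 (without KO library 2) for Ighm, none of them called. The median share part (-0.93) was -0.58 in list B alone and lay within 0.32, the spread between libraries, of the main value otherwise. The cause of these differences was not tested. Depth limits Rag1, Cd7 and Ly6d most, with 2 to 108, 3 to 406 and 0 to 1237 UMIs per library.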
